A study of Homo sapiens with 9 samples.

Results

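The comparison described here set Hep3B cells transfected with an siRNA against YAP beside untreated Hep3B cells. It took 6 of the 9 arrays of the series, 3 of each group, and every probe set whose annotation named a single gene, which was 19460 of 33297 probe sets. These measured 18417 genes. Hep3B is a human hepatocellular carcinoma line, and a small interfering RNA (siRNA) directs the degradation of transcripts that match it. All cells had grown in full medium for 24 h. One group then received the siRNA against YAP with Oligofectamine, a lipid transfection reagent, and its RNA was taken after another 24 h. The untreated group received no siRNA and, as far as the labels say, no transfection reagent. Effects of transfection, of lowering YAP1 and of this siRNA on other transcripts cannot be told apart in this comparison alone. The remaining 3 arrays, of cells transfected in the same way with a nonsense siRNA, are therefore given beside the main genes described. They cannot separate lowering YAP1 from other effects of the YAP siRNA, because the nonsense siRNA is a different one. Differences of YAP siRNA from untreated cells and of nonsense siRNA from untreated cells share the untreated arrays, and no relation between them was taken as a result. The labels give neither the sequence nor the number of siRNAs, nor whether the 3 samples per group were separate cultures. The p-values therefore measure only the spread between these samples, which may be technical.

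YAP, encoded by YAP1, is a transcriptional coactivator that binds no DNA itself and acts mainly through the TEAD family of DNA-binding proteins. In the Hippo pathway, the MST kinases activate the LATS kinases. These phosphorylate YAP and its paralog TAZ, encoded by WWTR1, and keep them in the cytoplasm. In liver, YAP is known as a regulator of organ size, of the balance between hepatocyte and progenitor character and of tumour growth, and its well-known target genes include CCN1, CCN2, ANKRD1 and AMOTL2.

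The titles of the samples start with HUH, whereas their cell line entry is Hep3B, which was followed. All 13 measured hepatoma markers had mean log2 signals above the median over genes of 7.31, from 8.76 to 12.6. The array medians differed by 0.048, and Pearson's r between arrays, across genes, which are not independent replicates, lay between 0.988 and 0.997. Untreated replicate 3 and YAP siRNA replicate 3 stood somewhat apart. Across genes, their deviations from their group means correlated at 0.344, and nonsense siRNA replicate 2 and YAP siRNA replicate 3 correlated at 0.47. The mean signal of 207 small RNA genes was lowest in untreated replicate 3 and YAP siRNA replicate 3, at 6.88 in each, against 6.94 to 6.99 in the other arrays of these groups. Its part in the results was not tested, and counts without these arrays are given with the results. Markers of other cell types were low: 11 of 13 stromal and endothelial markers and 10 of 12 leukocyte markers lay at or below the median signal. The log2 signals of the 13 stromal markers summed to 89.2 to 90.2 in untreated cells and 89.5 to 89.9 after YAP siRNA, and those of the 12 leukocyte markers to 83.3 to 84.6 and 83.2 to 84.3. In RNA of whole cultures, fewer cells expressing a gene and less of its RNA per cell cannot be told apart.

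The YAP1 transcript, the target of the siRNA, was measured at log2 signals of 8.78, 8.62 and 8.69 in the untreated arrays, 8.66, 8.75 and 8.68 after nonsense siRNA and 7.54, 7.52 and 7.48 after YAP siRNA. All 3 YAP siRNA arrays lay more than a log2 unit below every other array, and the nonsense siRNA arrays lay among the untreated ones. YAP1 fell by 1.19 on the log2 scale, which left 44% of the untreated level (limma, SE 0.0548, adjusted p = 6.34e-09). By exact two-sided permutation of the 3 arrays against 3, p was 0.1, the smallest that this design allows. WWTR1, which encodes the paralog TAZ, was at 7.98, 7.94 and 7.99 in the untreated arrays and 7.97, 8.10 and 8.07 after YAP siRNA. Its difference of 0.08 did not pass (limma, adjusted p = 0.518).

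Of the 18417 genes, 569 passed limma's two-sided test at an adjusted p under 0.05, which is 3.09% of genes tested. Of these, 300 rose (1.63%) and 269 fell (1.46%). The changes were small. The median called difference was 0.29 for rises and -0.31 for falls, and the smallest called size was 0.19. Only 10 genes rose by at least 0.5 on the log2 scale, while 31 fell by as much. No gene rose by 1 or more, and 3 fell by that amount, namely TNFRSF21, YAP1 and UHMK1. In all 569 called genes the 3 YAP siRNA arrays lay entirely on one side of the 3 untreated arrays, as they did in 20.5% of all genes (10.2% higher, 10.3% lower). Among all genes, 4.53% passed between YAP siRNA and nonsense siRNA (1.92% higher, 2.61% lower) and 0.614% between nonsense siRNA and untreated cells (0.337% higher, 0.277% lower). The arrays did not overlap in 20.2% of genes for YAP siRNA and nonsense siRNA (11.5% higher, 8.71% lower) and in 22.7% for nonsense siRNA and untreated cells (8.9% higher, 13.8% lower). The called genes were mostly well measured, with 83.3% of rises and 94.1% of falls at or above the median signal. Nearly all were protein coding, with 296 rises and 263 falls among 16902 such genes (3.31%). Most gene lists described below hold mainly genes at or above the median signal, where calls were more frequent. With only the 9208 genes above that signal tested, 578 passed, so 3.09% understates the share among such genes. The median difference over all genes was -0.01.

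The number of called genes depended on single arrays. It was 299 without untreated replicate 1, 347 without untreated replicate 2, 281 without YAP siRNA replicate 1 and 279 without YAP siRNA replicate 2. Leaving out YAP siRNA replicate 3 gave 468 genes called higher in place of 300. When untreated replicate 3, nonsense siRNA replicate 2 and YAP siRNA replicate 3 were left out together, an alternative chosen after seeing the data, 1560 genes were called (980 higher, 580 lower). When all 33297 probe sets were tested, 205 passed, of which 183 stood for genes called here. Of 103 called genes followed one by one, 62 passed in every one of 9 fits that each left out 1 array, and these carry most of the description that follows.

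**Figure D1:**
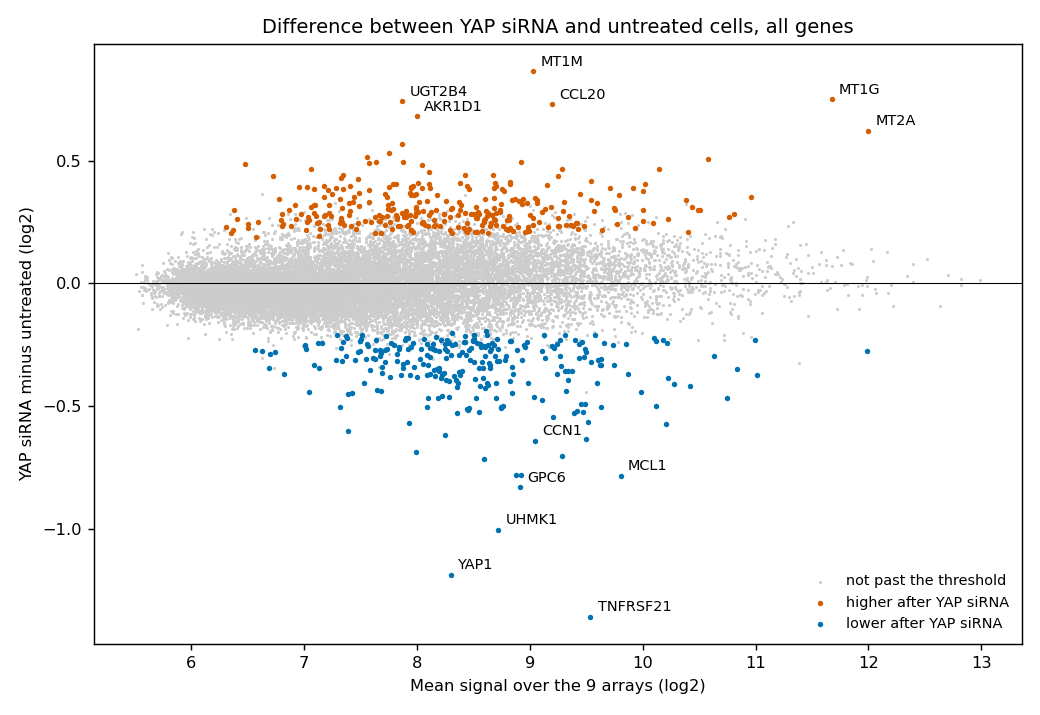
Each dot is a gene, placed by its mean log2 signal over the 9 arrays (horizontal axis) and by YAP siRNA minus untreated cells on the log2 scale (vertical axis). Orange dots are the 300 genes that rose and blue dots the 269 that fell at an adjusted p under 0.05. The falls of TNFRSF21, YAP1 and UHMK1, of 1 log2 unit or more, exceed all rises in size.

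The largest falls were those of TNFRSF21, YAP1, UHMK1, GPC6 and MCL1. TNFRSF21, a death receptor of the tumour necrosis factor receptor family, was at 9.96, 9.94 and 10.03 in the untreated arrays, 10.01, 10.01 and 10.01 after nonsense siRNA and 8.67, 8.59 and 8.60 after YAP siRNA. The nonsense siRNA arrays lay with the untreated ones, and the YAP siRNA arrays were lower than all of them. TNFRSF21 fell by 1.36 to 39% of the untreated level (SE 0.0510, adjusted p = 5.80e-10), a larger fall than that of YAP1 itself. UHMK1, a serine/threonine kinase that acts on splicing factors, was at 8.87, 8.89 and 8.93 in the untreated arrays, 9.36, 9.28 and 9.45 after nonsense siRNA and 7.95, 7.89 and 7.84 after YAP siRNA. Here the nonsense siRNA arrays lay above the untreated arrays and the YAP siRNA arrays below them. UHMK1 fell by 1.00 (SE 0.0571, adjusted p = 9.16e-08), while nonsense siRNA differed from untreated cells by 0.46 (adjusted p = 0.00225). MCL1, which encodes an anti-apoptotic BCL2 family protein, was at 10.05, 9.97 and 10.02 in the untreated arrays, 10.15, 10.21 and 10.18 after nonsense siRNA and 9.27, 9.26 and 9.15 after YAP siRNA and fell by 0.78 to 58.1% (SE 0.0535, adjusted p = 9.53e-07). As with UHMK1, the nonsense siRNA arrays of MCL1 were the highest of the 9.

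GPC6, a cell surface heparan sulfate proteoglycan, was at 9.21, 9.21 and 9.25 in untreated cells and 8.32, 8.37 and 8.49 after YAP siRNA and fell by 0.83 (SE 0.0672, adjusted p = 7.14e-06). FAM91A1, which takes part in tethering vesicles at the Golgi, fell by 0.78 (SE 0.0776, adjusted p = 5.64e-05), with arrays at 9.13, 9.15 and 9.03 against 8.54, 8.27 and 8.16. In both genes the YAP siRNA arrays also lay below all nonsense siRNA arrays. PDCD4, an inhibitor of translation initiation, was at 8.13, 8.15 and 8.17 and 7.51, 7.55 and 7.33 and fell by 0.69 (SE 0.0598, adjusted p = 1.46e-05). TMTC3, an O-mannosyltransferase of the endoplasmic reticulum, fell by 0.71 (adjusted p = 3.51e-06), and PLOD2, a collagen lysyl hydroxylase, fell by 0.70 (adjusted p = 0.000382). The virus receptor and junction protein gene CXADR fell by 0.63 (adjusted p = 0.000372) and YWHAQ, a phosphoserine-binding adaptor, by 0.57 (adjusted p = 0.000156). E2F5, a repressive member of the E2F family, fell by 0.60 (adjusted p = 0.00401), and with all probe sets tested it did not pass (adjusted p = 0.103).

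The YAP siRNA arrays of all 15 genes chosen as the largest falls lay below every nonsense siRNA array, as in 8.71% of all genes. The nonsense siRNA arrays lay below the untreated ones in 0 of the 15 (13.8% of all genes) and above them in 7 (8.9%). Since these genes were chosen for low YAP siRNA arrays and high untreated arrays, which the counts use too, nothing is read from them beyond the description. These 15 calls held in every fit that left out 1 array.

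The largest rises, those of MT1M, MT1G, UGT2B4, CCL20 and AKR1D1, were smaller. UGT2B4, which glucuronidates bile acids, was at 7.41, 7.54 and 7.68 in the untreated arrays, 7.71, 7.74 and 7.87 after nonsense siRNA and 8.38, 8.35 and 8.13 after YAP siRNA. The nonsense siRNA arrays lay above the untreated ones, and the YAP siRNA arrays above both. UGT2B4 rose by 0.74, or 1.67-fold (SE 0.0773, adjusted p = 7.45e-05). AKR1D1, a steroid reductase of bile acid synthesis, was at 7.61, 7.71 and 7.80 in the untreated arrays, 7.88, 7.86 and 7.97 after nonsense siRNA and 8.41, 8.42 and 8.33 after YAP siRNA and rose by 0.68 (SE 0.0590, adjusted p = 1.46e-05). Its order of groups was the same as for UGT2B4. CCL20, a chemokine that attracts lymphocytes and dendritic cells, rose by 0.73 (SE 0.120, adjusted p = 0.00265), with arrays at 8.52, 8.78 and 9.18 in untreated cells, 9.27, 9.06 and 9.32 after nonsense siRNA and 9.53, 9.47 and 9.67 after YAP siRNA. The untreated arrays of CCL20 spread over more than 0.5 log2 units, untreated replicate 3 being the highest, and the nonsense siRNA arrays overlapped that array. YAP siRNA minus nonsense siRNA was 0.34 for CCL20 (adjusted p = 0.154) and did not pass. With all probe sets tested CCL20 did not pass (adjusted p = 0.0929).

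Among the other rises, SLCO4C1, an organic anion transporter, rose by 0.57 (adjusted p = 7.28e-05) and TMT1A, a thiol methyltransferase of the endoplasmic reticulum and lipid droplets, by 0.53 (adjusted p = 0.000487). A dimmer probe set of SLCO4C1, at a mean signal of 6.05, differed by 0.15 and did not pass with all probe sets tested (adjusted p = 0.291). SI, the intestinal disaccharidase sucrase-isomaltase, was at 7.30, 7.39 and 7.31 in untreated cells and 7.82, 7.92 and 7.81 after YAP siRNA and rose by 0.52 (adjusted p = 0.000142). ACADSB, a mitochondrial dehydrogenase of branched-chain amino acid breakdown, rose by 0.50 (adjusted p = 0.00126), KLHL13, a cullin ubiquitin ligase adaptor, by 0.49 (adjusted p = 0.000142), and SCGN, a calcium-binding protein of secretory cells, by 0.49 (adjusted p = 0.000350). PLA2G7, the platelet-activating factor acetylhydrolase, rose by 0.49 (adjusted p = 0.00132) and TNFRSF9, a costimulatory receptor of T cells, by 0.48 (adjusted p = 0.000142). The YAP siRNA arrays lay above every nonsense siRNA array in 13 of the 15 largest rises (11.5% of all genes), and nonsense siRNA arrays themselves lay above all untreated arrays in 8 (8.9% of all genes). The same choice of genes by these arrays applies. These 15 calls also held in every fit that left out 1 array.

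**Figure D2:**
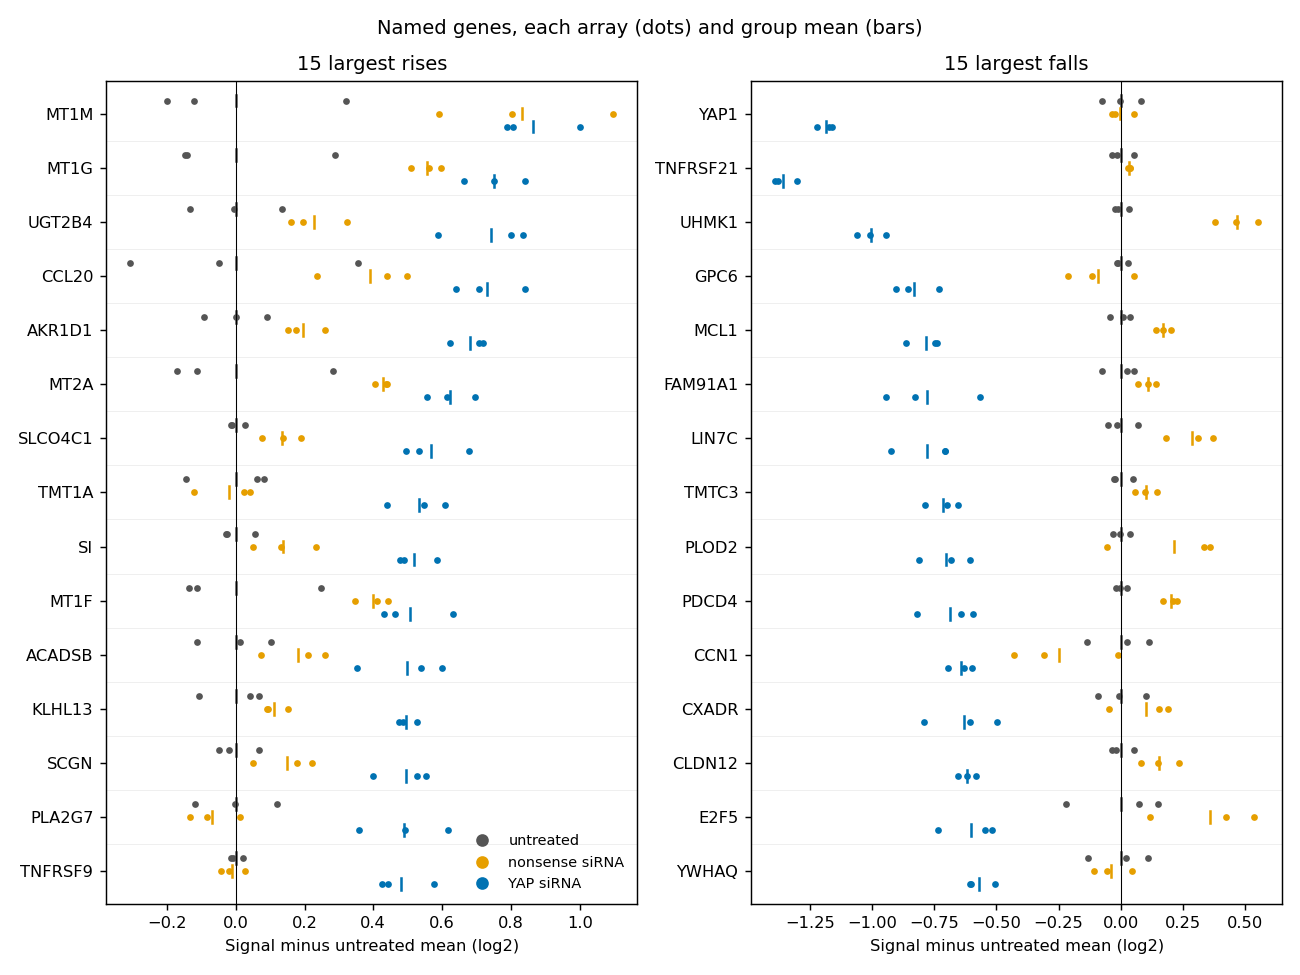
The 15 largest rises (left) and 15 largest falls (right), each gene on its own line, with the signal minus the mean of the untreated arrays on the log2 scale on the horizontal axis. Dots are single arrays, coloured by group, and bars are group means of 3 arrays. In the falls the YAP siRNA dots lie to the left of all other dots, and in MT1M, MT1G and MT2A the nonsense siRNA dots lie to the right of all untreated dots.

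TEAD proteins recognise a short DNA core, GGAATG. To show what the promoters of the affected YAP target genes hold, the 250 bases before the start site of each gene on a list of 26 YAP and TEAD target genes were searched for GGAATG and its reverse complement CATTCC, on RefSeq's GRCh38.p14. The table held 25 windows for 20 of these genes and none for CCN1, DLC1 and CRIM1, which fell. The core was present in 11 of 25 windows (44%), against 11.9% of all 35116 promoter windows, and in 6 of 10 windows of the 8 genes that passed. It was absent from the window of GADD45B, which fell, from that of NT5E, which rose, and from 1 window of AJUBA, and present in windows of NUAK2, PTPN14, FOXF2, EDN1 and AXL, which did not pass. A match describes the sequence and not a bound site, and TEAD often acts from distant enhancers, which were not examined. The windows of 4 genes that fell, chosen because they hold the core, are printed, 5′ to 3′ on the strand of the gene and ending at the base before the start site, with each core in capitals: CCN2 (chr6:131951373-131951622, minus strand) with 3 matches, ANKRD1 (chr10:90921088-90921337, minus strand) with 2, WTIP (chr19:34481508-34481757, plus strand) with 2 and AMOTL2 (chr3:134374448-134374697, minus strand) with 1.
CCN2: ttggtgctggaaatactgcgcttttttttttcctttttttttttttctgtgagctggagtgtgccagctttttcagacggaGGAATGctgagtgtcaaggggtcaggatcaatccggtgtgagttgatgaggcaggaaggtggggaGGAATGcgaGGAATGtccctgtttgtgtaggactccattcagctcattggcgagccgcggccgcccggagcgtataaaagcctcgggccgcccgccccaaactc
ANKRD1: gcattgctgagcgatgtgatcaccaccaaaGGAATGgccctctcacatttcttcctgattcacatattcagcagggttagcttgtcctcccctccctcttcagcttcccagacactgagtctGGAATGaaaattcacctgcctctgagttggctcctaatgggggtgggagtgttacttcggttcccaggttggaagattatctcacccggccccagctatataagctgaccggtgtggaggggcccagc
WTIP: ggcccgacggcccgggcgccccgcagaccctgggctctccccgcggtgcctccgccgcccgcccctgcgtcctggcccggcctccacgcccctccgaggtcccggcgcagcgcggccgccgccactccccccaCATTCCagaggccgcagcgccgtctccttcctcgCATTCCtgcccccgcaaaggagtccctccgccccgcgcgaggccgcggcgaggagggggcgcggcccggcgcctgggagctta
AMOTL2: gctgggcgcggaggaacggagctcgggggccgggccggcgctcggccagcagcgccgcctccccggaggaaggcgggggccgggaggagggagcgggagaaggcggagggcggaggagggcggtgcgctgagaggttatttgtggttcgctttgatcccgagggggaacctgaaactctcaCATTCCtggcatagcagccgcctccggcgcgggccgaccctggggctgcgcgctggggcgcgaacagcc

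In CCN2 the cores lay 169, 104 and 95 bases before the start site, and in ANKRD1 220 and 128 bases before it. Those of WTIP lay 117 and 83 bases before the start site and that of AMOTL2 lay 69 bases before it. A further start site of AMOTL2 in the table had no match in its window.

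Of the 26 YAP and TEAD target genes, all of which were measured, 10 fell and 1 rose, or 42.3% against the 3.09% of all genes. Their median difference was -0.16, and 22 of 26 differences lay below 0. CCN1, a secreted matricellular protein, was at 9.21, 9.46 and 9.37 in the untreated arrays, 9.03, 8.91 and 9.33 after nonsense siRNA and 8.75, 8.71 and 8.65 after YAP siRNA. The YAP siRNA arrays were the lowest of all 9, and the nonsense siRNA arrays, also spread below the untreated ones, overlapped them. CCN1 fell by 0.64 (SE 0.0887, adjusted p = 0.000727), and nonsense siRNA differed from untreated cells by -0.25 (adjusted p = 0.158). AMOTL2, a junctional scaffold of the angiomotin family, was at 8.64, 8.70 and 8.57 in the untreated arrays, 8.48, 8.61 and 8.59 after nonsense siRNA and 8.14, 8.12 and 8.12 after YAP siRNA and fell by 0.51 (SE 0.0551, adjusted p = 0.000107). ANKRD1, a nuclear and sarcomeric ankyrin repeat protein, was at 10.44, 10.59 and 10.57 in the untreated arrays, 10.64, 10.57 and 10.59 after nonsense siRNA and 10.16, 10.10 and 10.09 after YAP siRNA and fell by 0.42 (SE 0.0557, adjusted p = 0.000545). In both genes the untreated and nonsense siRNA arrays overlapped, and the YAP siRNA arrays lay below all 6. CCN2, the connective tissue growth factor, was at 9.80, 9.84 and 9.98 in untreated cells and 9.51, 9.52 and 9.60 after YAP siRNA and fell by 0.33 (SE 0.0590, adjusted p = 0.00489), a call that was lost with all probe sets tested (adjusted p = 0.0525).

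The remaining falls of the list are named so that each member that passed is given; they were chosen after their values were seen. DLC1, a tumour suppressor named for its deletion in liver cancer, fell by 0.37 (adjusted p = 0.00108) and WTIP, a LIM domain protein that binds LATS kinases, by 0.37 (adjusted p = 0.00194). TGFB2, a ligand of the TGF-beta family, fell by 0.32 (adjusted p = 0.00604), though not with all probe sets tested (adjusted p = 0.0566). AJUBA, another LIM protein of the Hippo pathway, fell by 0.31, GADD45B, a stress sensor, by 0.29 and CRIM1, a transmembrane regulator of BMP signalling, by 0.25. AJUBA did not pass without untreated replicate 2 (0.0560) or YAP siRNA replicate 2 (0.0509), where brackets give the adjusted p. GADD45B did not pass without untreated replicate 1 (0.123), untreated replicate 3 (0.107), YAP siRNA replicate 1 (0.146) or YAP siRNA replicate 2 (0.120). CRIM1 did not pass without nonsense siRNA replicate 1 (0.0571), untreated replicate 1 (0.177), untreated replicate 2 (0.103), YAP siRNA replicate 1 (0.145), YAP siRNA replicate 2 (0.0729) or YAP siRNA replicate 3 (0.0738). None of the 3 passed with all probe sets tested. NT5E, the surface enzyme that makes adenosine, moved the other way: it was at 7.75, 7.82 and 7.72 in untreated cells and 8.21, 8.23 and 8.02 after YAP siRNA and rose by 0.39 (SE 0.0615, adjusted p = 0.00193). AXL, a receptor tyrosine kinase often used as a YAP readout, was at 7.36, 7.16 and 7.27 and 7.06, 7.02 and 7.18, and its difference of -0.18 did not pass (adjusted p = 0.155). The number of falls in the list was 7 to 11 when 1 array was left out, 5 when all probe sets were tested and 11, with 2 rises, without the 3 arrays left out together.

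**Figure D3:**
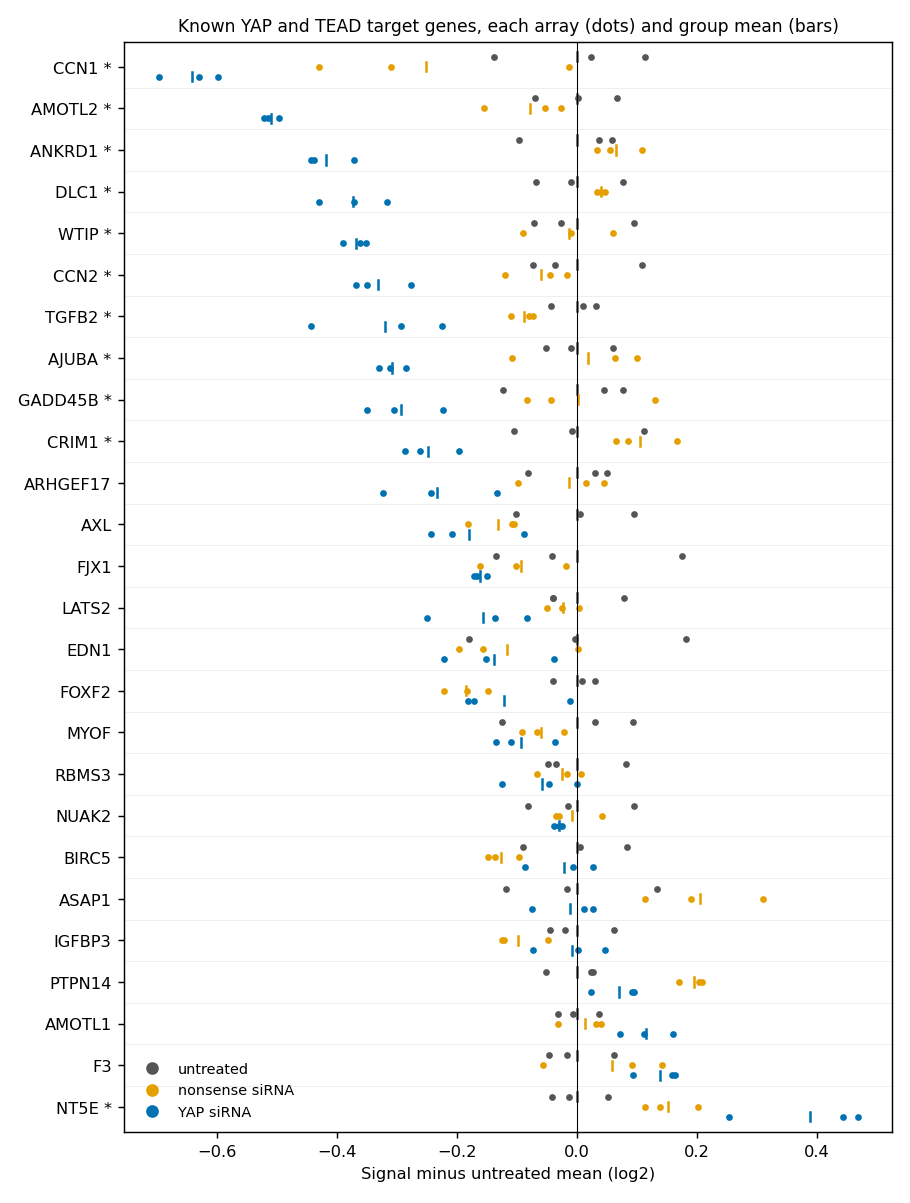
YAP and TEAD target genes, each on its own line, with the log2 signal minus the untreated mean on the horizontal axis, dots for single arrays coloured by group, bars for group means of 3 arrays and an asterisk for an adjusted p under 0.05. Asterisks mark the 10 genes that fell, from CCN1 at -0.64 to CRIM1 at -0.25, and NT5E, which rose by 0.39.

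Among 26 components of the Hippo pathway, all measured, 6 fell and 0 rose (23.1%, against 3.09% of all genes), with a median difference of -0.06. These 6 falls include YAP1, the target of the siRNA itself, and AMOTL2, already counted among the YAP and TEAD target genes. TEAD2, one of the TEAD DNA-binding partners of YAP, was at 8.71, 8.86 and 8.75 in the untreated arrays, 8.49, 8.66 and 8.47 after nonsense siRNA and 8.33, 8.34 and 8.39 after YAP siRNA and fell by 0.42 (SE 0.0615, adjusted p = 0.00116). The YAP siRNA arrays were lower than all others, and the nonsense siRNA arrays were in turn lower than the untreated arrays. For TEAD2, nonsense siRNA minus untreated cells was -0.24 (adjusted p = 0.0881). YAP siRNA minus nonsense siRNA was -0.18 (adjusted p = 0.130), and neither passed. WWC1, the scaffold also called KIBRA that activates LATS kinases, fell by 0.38 (adjusted p = 0.00341, but adjusted p = 0.0559 with all probe sets tested), and its paralog WWC2 fell by 0.28 (adjusted p = 0.0316). WWC2 did not pass without untreated replicate 1 (0.159), untreated replicate 2 (0.0925), YAP siRNA replicate 1 (0.0588), YAP siRNA replicate 2 (0.0744) or YAP siRNA replicate 3 (0.0823). TEAD1 was at 8.47, 8.49 and 8.38 in untreated cells and 8.27, 8.24 and 8.12 after YAP siRNA and fell by 0.24 (adjusted p = 0.0408). It did not pass without nonsense siRNA replicate 1 (0.0608), untreated replicate 1 (0.138), untreated replicate 2 (0.151), YAP siRNA replicate 1 (0.0726), YAP siRNA replicate 2 (0.108) or YAP siRNA replicate 3 (0.0965). Neither WWC2 nor TEAD1 passed with all probe sets tested. TEAD4, with a difference of -0.18, did not pass (adjusted p = 0.0923).

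Metallothioneins are small cysteine-rich proteins that bind zinc and other metals, and the zinc sensor MTF1 activates their genes through metal response elements in their promoters. To show how densely these stand in the genes that rose, the same promoter windows were searched on both strands for TGCACNC and TGCGCNC, a motif chosen after the values were seen. It was present in 24.8% of all windows and in 5 of 10 windows of the 8 list genes in the table. No window was available for MT1M, MT1G and MT1F, which also rose, and that of MTF1, which rose, held no match. The windows of MT2A (chr16:56608334-56608583, plus strand) with 7 matches and of MT1X (chr16:56682220-56682469, plus strand) with 4 are printed in the same way, with each match in capitals; matches that overlap run together.
MT2A: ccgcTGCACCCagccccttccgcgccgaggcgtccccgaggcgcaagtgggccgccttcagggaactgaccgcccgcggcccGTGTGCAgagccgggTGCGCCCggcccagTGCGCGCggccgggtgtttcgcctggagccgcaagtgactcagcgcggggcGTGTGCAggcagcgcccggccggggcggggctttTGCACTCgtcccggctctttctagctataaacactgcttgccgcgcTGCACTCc
MT1X: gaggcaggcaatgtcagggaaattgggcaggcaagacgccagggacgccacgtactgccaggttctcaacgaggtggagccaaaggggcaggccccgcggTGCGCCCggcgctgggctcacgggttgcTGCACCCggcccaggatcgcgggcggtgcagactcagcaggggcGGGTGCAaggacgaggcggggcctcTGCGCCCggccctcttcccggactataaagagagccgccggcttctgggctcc

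Of 13 measured genes for metallothioneins and zinc transport, 9 rose and 0 fell (69.2%, against 3.09% of all genes), with a median difference of 0.29. MT1M was at 8.34, 8.26 and 8.78 in the untreated arrays, 9.27, 9.06 and 9.56 after nonsense siRNA and 9.46, 9.27 and 9.25 after YAP siRNA. The untreated arrays were the lowest, untreated replicate 3 being the highest of them, and the nonsense siRNA and YAP siRNA arrays overlapped. MT1M rose by 0.86, or 1.82-fold (SE 0.126, adjusted p = 0.00108), and nonsense siRNA minus untreated cells was 0.83 (adjusted p = 0.0112). MT1G was at 11.09, 11.10 and 11.53 in the untreated arrays, 11.80, 11.75 and 11.84 after nonsense siRNA and 11.99, 11.90 and 12.08 after YAP siRNA and rose by 0.75 (SE 0.0924, adjusted p = 0.000298). MT2A was at 11.48, 11.54 and 11.93 in the untreated arrays, 12.09, 12.06 and 12.09 after nonsense siRNA and 12.26, 12.21 and 12.34 after YAP siRNA and rose by 0.62 (SE 0.0892, adjusted p = 0.000968). In MT1G and MT2A the YAP siRNA arrays lay above all nonsense siRNA arrays, which lay above all untreated arrays. The difference between nonsense siRNA and untreated cells was 0.56 for MT1G (adjusted p = 0.0181) and 0.43 for MT2A (adjusted p = 0.0452). YAP siRNA minus nonsense siRNA was 0.03 for MT1M (adjusted p = 0.952), 0.20 for MT1G (adjusted p = 0.321) and 0.19 for MT2A (adjusted p = 0.304), and none of the 3 passed.

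MT1F rose by 0.51 (adjusted p = 0.00343). Its nonsense siRNA and YAP siRNA arrays overlapped and lay above the untreated arrays. Nonsense siRNA minus untreated cells was 0.40 (adjusted p = 0.0522), and YAP siRNA minus nonsense siRNA was 0.11 (adjusted p = 0.644). SLC30A1, the zinc exporter of the plasma membrane and itself an MTF1 target, was at 7.59, 7.63 and 7.70 in the untreated arrays, 7.90, 7.90 and 7.84 after nonsense siRNA and 7.91, 7.94 and 7.90 after YAP siRNA and rose by 0.28 (SE 0.0509, adjusted p = 0.00593). Its nonsense siRNA arrays lay above the untreated arrays, and its YAP siRNA arrays barely above those. The last 4 rises are named after their values were seen. MT1X rose by 0.41, MT1H by 0.40, MTF1 by 0.29 and MT1B by 0.28, and each of these 4 calls was lost in at least 1 fit that left out an array. MT1X did not pass without untreated replicate 1 (0.107), untreated replicate 2 (0.0931), YAP siRNA replicate 1 (0.0837) or YAP siRNA replicate 2 (0.0782). MT1H did not pass without untreated replicate 1 (0.107), untreated replicate 2 (0.103), YAP siRNA replicate 1 (0.0550) or YAP siRNA replicate 3 (0.0553). MTF1 did not pass without untreated replicate 2 (0.112), untreated replicate 3 (0.117), YAP siRNA replicate 1 (0.0644) or YAP siRNA replicate 2 (0.183). MT1B did not pass without untreated replicate 1 (0.122), untreated replicate 2 (0.0940), YAP siRNA replicate 1 (0.0613), YAP siRNA replicate 2 (0.0597) or YAP siRNA replicate 3 (0.0614). In the metallothionein genes that rose, untreated replicate 3, which also had the lowest small RNA signal of the untreated arrays, lay above the other untreated arrays. Without it 8 of the 13 genes rose, and without untreated replicate 2 or YAP siRNA replicate 1 the number was 5. When all probe sets were tested, the probe sets standing for MT1G and SLC30A1 passed and the other 7 did not (2 of 13), while another probe set of MT2A passed narrowly, at 0.57 (adjusted p = 0.0495). A further probe set of MT2A, at 0.29, did not pass (adjusted p = 0.150). Without the 3 arrays left out together, 10 of the 13 genes rose. Metallothionein genes are close paralogs, and their probe sets may measure one another's transcripts.

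**Figure D4:**
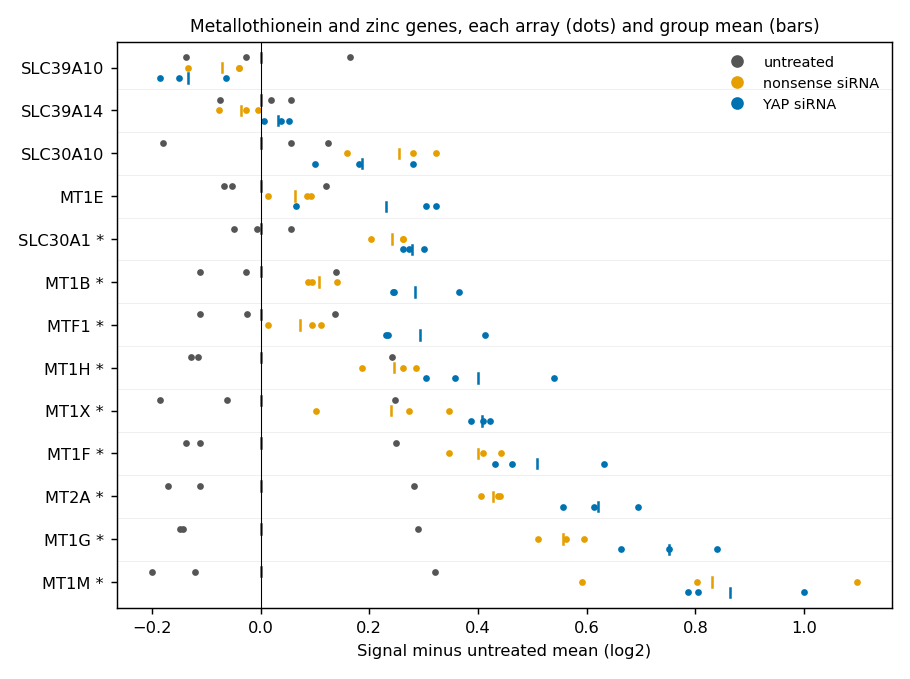
Metallothionein and zinc transport genes, each on its own line, with the log2 signal minus the untreated mean on the horizontal axis, dots for single arrays coloured by group, bars for group means of 3 arrays and an asterisk for an adjusted p under 0.05. The 9 genes with an asterisk rose by 0.28 to 0.86, and the untreated dots of several metallothioneins include 1 array well to the right of the other two.

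Of 24 measured genes of the BCL2 family and of apoptosis, 1 rose and 4 fell (20.8%, against 3.09% of all genes), with a median difference of -0.06. This list was chosen with earlier results of these data known. TNFRSF21 and MCL1, both also among the 15 largest falls, made up the falls that held in every fit that left out 1 array. Besides them, APAF1, which builds the apoptosome, fell by 0.27 and BOK, a pro-apoptotic BCL2 family member, by 0.24. APAF1 did not pass without untreated replicate 1 (0.0802), untreated replicate 2 (0.0742) or YAP siRNA replicate 1 (0.0978). BOK did not pass without untreated replicate 1 (0.0926), untreated replicate 2 (0.0645), YAP siRNA replicate 1 (0.0790) or YAP siRNA replicate 2 (0.0732). All nonsense siRNA arrays of BOK also lay below the untreated arrays, at a difference of -0.18 (adjusted p = 0.113). The YAP siRNA arrays lay lowest, with YAP siRNA minus nonsense siRNA at -0.06 (adjusted p = 0.655). The single rise, of the initiator caspase gene CASP8 by 0.21, named after its value was seen, did not pass without nonsense siRNA replicate 1 (0.0548), untreated replicate 1 (0.123), untreated replicate 2 (0.103), YAP siRNA replicate 1 (0.118) or YAP siRNA replicate 2 (0.172). The remaining 19 genes did not pass. Of 25 Notch pathway genes, 2 fell and 0 rose (8%, against 3.09% of all genes), with a median of -0.06. JAG1, a Notch ligand, was at 11.01, 10.95 and 10.90 in the untreated arrays, 10.90, 11.01 and 10.95 after nonsense siRNA and 10.63, 10.56 and 10.62 after YAP siRNA. The YAP siRNA arrays lay below all others, and the other 2 groups overlapped. JAG1 fell by 0.35 to 78.5% of the untreated level (SE 0.0533, adjusted p = 0.00149). The second fall was ADAM17, the protease that sheds Notch and its ligands, at -0.26, and it did not pass without untreated replicate 1 (0.0735), untreated replicate 2 (0.110), YAP siRNA replicate 1 (0.0843) or YAP siRNA replicate 3 (0.0597). The receptor NOTCH2 differed by -0.13 (adjusted p = 0.277) and the Notch target HES1 by -0.14 (adjusted p = 0.317), and neither passed.

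Of 23 measured genes of bile acid and drug metabolism, 3 rose and 0 fell (13%, against 3.09% of all genes), with a median of 0.05. UGT2B4 and AKR1D1 were joined by ADH6, an alcohol dehydrogenase, at 6.55, 6.52 and 6.55 in the untreated arrays, 6.62, 6.60 and 6.68 after nonsense siRNA and 6.98, 7.0 and 6.97 after YAP siRNA. Its YAP siRNA arrays lay well above the other 6, and it rose by 0.44 (SE 0.0492, adjusted p = 0.000142). Of 22 measured genes of fatty acid and triglyceride metabolism, 5 rose and 3 fell (36.4%, against 3.09% of all genes), with a median of 0.05. ACSL5, which activates long-chain fatty acids, was at 7.83, 7.81 and 7.88 in the untreated arrays, 7.75, 7.81 and 7.76 after nonsense siRNA and 8.20, 8.29 and 8.21 after YAP siRNA and rose by 0.39 (SE 0.0515, adjusted p = 0.000463). SOAT2, which esterifies cholesterol, was at 7.91, 8.08 and 8.10 in untreated cells and 8.48, 8.42 and 8.36 after YAP siRNA and rose by 0.39 (SE 0.0631, adjusted p = 0.00225). In both, nonsense siRNA arrays lay with or below the untreated ones. PPARGC1A, a coactivator of mitochondrial and gluconeogenic genes, rose by 0.32 (adjusted p = 0.00739, but adjusted p = 0.0636 with all probe sets tested). GPAM, the first enzyme of glycerolipid synthesis, rose by 0.38, and did not pass without untreated replicate 1 (0.0844), untreated replicate 2 (0.0715), YAP siRNA replicate 1 (0.0726) or YAP siRNA replicate 2 (0.0909). The fifth rise and the 3 falls are named after their values were seen. ELOVL6, a fatty acid elongase, rose by 0.27. FASN, the fatty acid synthase, fell by 0.25, PNPLA3, a lipase of lipid droplets, by 0.24 and SREBF1, the transcription factor that drives fatty acid synthesis, by 0.22. ELOVL6 did not pass without untreated replicate 1 (0.0628), untreated replicate 3 (0.0685), YAP siRNA replicate 1 (0.0858) or YAP siRNA replicate 2 (0.0712). The falls rested on single arrays: 0 of the 3 passed without untreated replicate 1 or 2 or without YAP siRNA replicate 1 or 2, and 1 passed without nonsense siRNA replicate 1 or YAP siRNA replicate 3. The 5 rises were 3 without untreated replicate 1, YAP siRNA replicate 1 or YAP siRNA replicate 2.

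Of 15 measured genes of cholesterol synthesis and uptake, 1 passed (6.67%, against 3.09% of all genes). SREBF2, the transcription factor that drives this pathway, fell by 0.31 (SE 0.0553, adjusted p = 0.00451), with arrays at 8.93, 8.92 and 8.86 in untreated cells and 8.53, 8.63 and 8.61 after YAP siRNA, while the median of the list was 0.00. Of 27 secretory proteins of liver, 1 rose: F5, coagulation factor V, by 0.36 (SE 0.0545, adjusted p = 0.00139). That share of 3.7% is near the 3.09% of all genes. Leaving out nonsense siRNA replicate 2 gave 2 rises, leaving out YAP siRNA replicate 3 gave 3, and there were 5 with array weights or without the 3 arrays together. In limma's test, 0 of 17 measured hepatocyte transcription factors passed, with 2 at an unadjusted p under 0.05. Likewise 0 of 15 oncofetal and progenitor genes passed, with 5 at an unadjusted p under 0.05, and 1 was higher without untreated replicate 1, nonsense siRNA replicate 2 or YAP siRNA replicate 3 and 1 lower without nonsense siRNA replicate 2. The 13 hepatoma markers gave 0 calls as well, with 2 at an unadjusted p under 0.05. The albumin gene ALB differed by 0.04 (adjusted p = 0.782) and AFP, alpha-fetoprotein, by 0.08 (adjusted p = 0.515).

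In the list for DNA replication and G1/S, 3 of 26 measured genes fell and 0 rose (11.5%, against 3.09% of all genes), with a median of 0.00 and 9 at an unadjusted p under 0.05. SLBP, which binds the stem-loop of histone transcripts, was at 8.80, 8.82 and 8.76 in untreated cells and 8.56, 8.55 and 8.46 after YAP siRNA and fell by 0.27 (SE 0.0514, adjusted p = 0.00823). RRM2, a subunit of ribonucleotide reductase, fell by 0.25 and POLA1, a DNA polymerase subunit, by 0.25. RRM2 did not pass without nonsense siRNA replicate 1 (0.0655), untreated replicate 1 (0.135), untreated replicate 2 (0.112), untreated replicate 3 (0.115), YAP siRNA replicate 2 (0.187) or YAP siRNA replicate 3 (0.103). POLA1 did not pass without untreated replicate 1 (0.123), untreated replicate 2 (0.122), YAP siRNA replicate 1 (0.0698), YAP siRNA replicate 2 (0.0611) or YAP siRNA replicate 3 (0.0750). RRM2 also missed the threshold without the 3 arrays left out together (adjusted p = 0.0590). Without nonsense siRNA replicate 2 one further member passed as higher, and without the 3 arrays together 3 members were higher and 3 lower. Of 25 genes of mitosis and G2/M, 0 passed in limma's test, with 2 at an unadjusted p under 0.05 and a median of 0.03. Here 1 was called higher without YAP siRNA replicate 3, and 2 higher and 1 lower without the 3 arrays together. FOXM1, a transcription factor of mitotic genes, differed by 0.02 (adjusted p = 0.920), and the sign turned without untreated replicate 3. CCNB1, cyclin B, differed by 0.15 (adjusted p = 0.303) and CDKN1A, the p21 inhibitor of cyclin-dependent kinases, by -0.07 (adjusted p = 0.578).

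Of 18 p53 target genes, 1 rose and 1 fell (11.1%, against 3.09% of all genes). TP53INP1, a p53-induced protein of autophagy and cell death, was at 8.59, 8.61 and 8.67 in the untreated arrays, 8.72, 8.54 and 8.68 after nonsense siRNA and 8.17, 8.16 and 8.02 after YAP siRNA, with the YAP siRNA arrays below all 6 others, and fell by 0.51 (SE 0.0608, adjusted p = 0.000234). TNFRSF10B, a receptor of the death ligand TRAIL, rose by 0.24 and did not pass without untreated replicate 1 (0.0735), untreated replicate 2 (0.0634), YAP siRNA replicate 1 (0.0593) or YAP siRNA replicate 2 (0.0713). The falls of this list were 2 without YAP siRNA replicate 3. Of 22 genes of the unfolded protein and integrated stress responses, 1 rose and 4 fell (22.7%, against 3.09% of all genes), with a median of 0.01. VLDLR, a lipoprotein receptor induced by this response, fell by 0.27 (SE 0.0519, adjusted p = 0.00748). HSPA5, the main chaperone of the endoplasmic reticulum, rose by 0.30, but did not pass without untreated replicate 1 (0.106), YAP siRNA replicate 1 (0.0930) or YAP siRNA replicate 2 (0.120). HSPA5 also differed by 0.26 between nonsense siRNA and untreated cells (adjusted p = 0.0815). Its YAP siRNA and nonsense siRNA arrays overlapped, with YAP siRNA minus nonsense siRNA at 0.04 (adjusted p = 0.858). The falls of TRIB3 (-0.27) and ATF4 (-0.23), a pseudokinase and the transcription factor that induces it, were also lost in at least 1 such fit. DNAJC3, a co-chaperone of HSPA5 named after its value was seen, fell by 0.23, and did not pass without untreated replicate 1 (0.0981), untreated replicate 2 (0.0715), untreated replicate 3 (0.0711), YAP siRNA replicate 2 (0.0901) or YAP siRNA replicate 3 (0.0693). TRIB3 did not pass without untreated replicate 1 (0.0930), untreated replicate 2 (0.0638), YAP siRNA replicate 1 (0.0818) or YAP siRNA replicate 2 (0.0881). Nonsense siRNA minus untreated cells was -0.33 for TRIB3 (adjusted p = 0.0246), and the nonsense siRNA and YAP siRNA arrays overlapped. ATF4 did not pass without untreated replicate 1 (0.103), untreated replicate 2 (0.124), YAP siRNA replicate 1 (0.105), YAP siRNA replicate 2 (0.0574) or YAP siRNA replicate 3 (0.0587). The falls numbered 1 without untreated replicate 2 or YAP siRNA replicate 2 and 2 without untreated replicate 1 or YAP siRNA replicate 1. Of 20 genes of hypoxia and glycolysis, 2 fell and 0 rose (10%, against 3.09% of all genes), namely PLOD2 and NDRG1. NDRG1, a stress-induced gene, fell by 0.41 (SE 0.0541, adjusted p = 0.000441) with arrays at 8.77, 8.77 and 8.79 and 8.34, 8.36 and 8.38. The median of that list was 0.02.

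Among 27 measured growth factor receptors and ligands, 2 rose and 4 fell (22.2%, against 3.09% of all genes), with a median of -0.04. FGFR3, a fibroblast growth factor receptor, was at 9.0, 8.79 and 8.79 in the untreated arrays, 8.48, 8.44 and 8.62 after nonsense siRNA and 8.43, 8.45 and 8.42 after YAP siRNA. The nonsense siRNA arrays overlapped the YAP siRNA arrays and lay below all untreated arrays. FGFR3 fell by 0.42 (SE 0.0651, adjusted p = 0.00151), and nonsense siRNA differed from untreated cells by -0.35 (adjusted p = 0.0275). INSR, the insulin receptor, was at 8.49, 8.43 and 8.33 in the untreated arrays, 8.42, 8.33 and 8.47 after nonsense siRNA and 8.10, 7.95 and 8.01 after YAP siRNA, with only the YAP siRNA arrays apart, and fell by 0.40 (SE 0.0608, adjusted p = 0.00149). MET, the hepatocyte growth factor receptor, rose by 0.31, and did not pass without untreated replicate 1 (0.0562) or YAP siRNA replicate 2 (0.0604). IGF1R, an insulin-like growth factor receptor, fell by 0.25, and did not pass without untreated replicate 1 (0.107), untreated replicate 2 (0.0855) or YAP siRNA replicate 1 (0.0965). Named after their values were seen, the receptor gene ERBB2 fell by 0.24 and the ligand gene EREG rose by 0.24. ERBB2 did not pass without untreated replicate 1 (0.133), untreated replicate 2 (0.0788), YAP siRNA replicate 1 (0.117) or YAP siRNA replicate 2 (0.123). EREG did not pass without untreated replicate 2 (0.0757) or YAP siRNA replicate 1 (0.0858). The falls of this list were 2 without untreated replicate 1 or 2 or without YAP siRNA replicate 1, and the rises were 1 without untreated replicate 1 or 2 or without YAP siRNA replicate 1 or 2.

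Of 21 Wnt pathway and beta-catenin target genes, 1 passed (4.76%, near the 3.09% of all genes). FZD5, a Wnt receptor, was at 10.23, 10.23 and 10.23 in the untreated arrays, 10.39, 10.41 and 10.38 after nonsense siRNA and 9.73, 9.69 and 9.77 after YAP siRNA. FZD5 fell by 0.50 (SE 0.0488, adjusted p = 4.81e-05). Its nonsense siRNA arrays lay above the untreated ones and its YAP siRNA arrays below. Of 24 genes of tight junctions and cell polarity, 2 fell and 0 rose (8.33%, against 3.09% of all genes), with a median of -0.03. LIN7C, a polarity scaffold, was at 9.07, 9.15 and 9.03 in the untreated arrays, 9.46, 9.27 and 9.39 after nonsense siRNA and 8.38, 8.38 and 8.16 after YAP siRNA and fell by 0.78 (SE 0.0688, adjusted p = 1.52e-05), and CLDN12, a claudin, fell by 0.62 (SE 0.0549, adjusted p = 1.52e-05). Of 27 genes of extracellular matrix and integrins, 2 rose and 3 fell (18.5%, against 3.09% of all genes). PLOD2 was the fall that held in every fit that left out 1 array. LOXL2, a lysyl oxidase, fell by 0.26, while nonsense siRNA differed from untreated cells by -0.22 (adjusted p = 0.0876), and did not pass without untreated replicate 1 (0.0730), untreated replicate 2 (0.0625), untreated replicate 3 (0.0508) or YAP siRNA replicate 1 (0.126). The YAP siRNA and nonsense siRNA arrays of LOXL2 overlapped, at a difference of -0.04 (adjusted p = 0.830). LAMA5, a laminin chain, fell by 0.25 and did not pass without untreated replicate 1 (0.106), untreated replicate 2 (0.0867), YAP siRNA replicate 1 (0.116) or YAP siRNA replicate 2 (0.0682). For LAMA5, YAP siRNA minus nonsense siRNA was -0.13 (adjusted p = 0.259). ITGA2, a collagen receptor subunit, rose by 0.28 and did not pass without YAP siRNA replicate 1 (0.0572) or YAP siRNA replicate 2 (0.0561). LOX, a lysyl oxidase named after its value was seen, rose by 0.24 and did not pass without nonsense siRNA replicate 1 (0.0734), nonsense siRNA replicate 3 (0.0582), untreated replicate 1 (0.214), untreated replicate 2 (0.0545), untreated replicate 3 (0.0610), YAP siRNA replicate 1 (0.138) or YAP siRNA replicate 2 (0.240). The 2 rises of the list became 0 without YAP siRNA replicate 1 or 2 and 1 without any untreated array, nonsense siRNA replicate 1 or nonsense siRNA replicate 3. Of 20 genes of the actin cytoskeleton and SRF targets, 0 passed in limma's test and 0 had an unadjusted p under 0.05.

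Of 26 interferon-stimulated genes, 1 passed (3.85%, near the 3.09% of all genes). CXCL10, a chemokine, rose by 0.48 (SE 0.0529, adjusted p = 0.000111), with arrays at 6.26, 6.28 and 6.22 in the untreated arrays, 6.37, 6.41 and 6.48 after nonsense siRNA and 6.69, 6.73 and 6.80 after YAP siRNA. The groups followed one another without overlap, untreated cells lowest. The probe set was dim, at percentile 18.7 of mean signal over genes, so that a filter at the 25th percentile left 0 calls in this list. IFIT1, an antiviral effector that responds to foreign RNA, measured by a probe set at percentile 1.55, was at 5.89, 5.75 and 5.82 in untreated cells and 6.09, 6.01 and 5.96 after YAP siRNA, and its difference of 0.20 did not pass (adjusted p = 0.0744). Without YAP siRNA replicate 1 or YAP siRNA replicate 3, 2 members of this list were called higher. Of 20 genes of NF-kB and inflammation, 2 rose (10%, against 3.09% of all genes), CCL20 and TNFAIP3. TNFAIP3, an inhibitor of NF-kB signalling, rose by 0.27 and did not pass without untreated replicate 1 (0.0562) or YAP siRNA replicate 1 (0.0649). For TNFAIP3, nonsense siRNA minus untreated cells was 0.20 (adjusted p = 0.0926). YAP siRNA minus nonsense siRNA was 0.07 (adjusted p = 0.606), and the arrays of these groups overlapped. Of 19 immediate early genes, 2 fell and 0 rose (10.5%, against 3.09% of all genes), with a median of -0.09. IER3, an early response gene, was at 8.03, 8.15 and 8.17 in untreated cells and 7.71, 7.78 and 7.76 after YAP siRNA and fell by 0.37 (SE 0.0654, adjusted p = 0.00446). For IER3, YAP siRNA minus nonsense siRNA was -0.20 (adjusted p = 0.123) and did not pass. DUSP1, a phosphatase of MAP kinases, fell by 0.37 (SE 0.0634, adjusted p = 0.00354), with arrays at 9.96, 10.02 and 9.96 and 9.54, 9.65 and 9.63. With all probe sets tested neither passed (adjusted p = 0.0625 and adjusted p = 0.0559).

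The genes of the RNA interference machinery, through which an siRNA acts, gave 1 rise and 1 fall among 14 (14.3%, against 3.09% of all genes). TNRC6A, a scaffold that binds Argonaute proteins, was at 8.07, 7.88 and 7.83 in the untreated arrays, 8.36, 8.29 and 8.31 after nonsense siRNA and 8.27, 8.35 and 8.24 after YAP siRNA. The nonsense siRNA and YAP siRNA arrays overlapped and lay above the untreated arrays. TNRC6A rose by 0.36 (SE 0.0638, adjusted p = 0.00449), nonsense siRNA differed from untreated cells by 0.39 (adjusted p = 0.0157), and with all probe sets tested the rise did not pass (adjusted p = 0.0614). The fall, of AGO4, an Argonaute protein, by 0.21, did not pass when any one of 7 arrays was left out: nonsense siRNA replicate 1 (0.0635), nonsense siRNA replicate 3 (0.0513), untreated replicate 1 (0.168), untreated replicate 2 (0.119), YAP siRNA replicate 1 (0.193), YAP siRNA replicate 2 (0.0954) or YAP siRNA replicate 3 (0.0525). Of 25 genes of membrane traffic, 1 rose and 1 fell (8%, against 3.09% of all genes). STX12, an endosomal syntaxin, rose by 0.41 (SE 0.0694, adjusted p = 0.00312). Its arrays stood at 8.65, 8.87 and 8.88 in the untreated arrays, 8.5, 8.33 and 8.52 after nonsense siRNA and 9.22, 9.23 and 9.18 after YAP siRNA, so that the nonsense siRNA arrays lay below the untreated arrays and the YAP siRNA arrays above them, and the call was lost with all probe sets tested (adjusted p = 0.0614). STX6, another syntaxin of that list, fell by 0.22 and did not pass without nonsense siRNA replicate 1 (0.0682), nonsense siRNA replicate 3 (0.0540), untreated replicate 1 (0.138), untreated replicate 2 (0.169), YAP siRNA replicate 1 (0.181), YAP siRNA replicate 2 (0.110) or YAP siRNA replicate 3 (0.0664). One further member of the list was called higher without YAP siRNA replicate 1.

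LAMP2, a lysosomal membrane protein, was at 9.56, 9.58 and 9.70 in the untreated arrays, 9.75, 9.51 and 9.90 after nonsense siRNA and 9.17, 9.12 and 8.98 after YAP siRNA and fell by 0.52 (SE 0.0836, adjusted p = 0.00207; adjusted p = 0.0661 with all probe sets tested). Among 23 genes of autophagy and the lysosome, 2 fell, LAMP2 and BECN1 (8.7% of the list, against 3.09% of all genes). BECN1, which nucleates autophagosomes, stood at -0.32 and did not pass without untreated replicate 2 (0.0651) or YAP siRNA replicate 1 (0.0662). Of 24 measured respiratory chain subunits, 2 fell and 0 rose (8.33%, against 3.09% of all genes), while the median of the list was 0.06. NDUFS1, a subunit of the first complex, fell by 0.27 (SE 0.0525, adjusted p = 0.00993). ATP5PO, a subunit of the ATP synthase, fell by 0.25 and did not pass without nonsense siRNA replicate 1 (0.0544), untreated replicate 1 (0.174), untreated replicate 3 (0.0724), YAP siRNA replicate 1 (0.0965), YAP siRNA replicate 2 (0.103) or YAP siRNA replicate 3 (0.0803), nor without the 3 arrays left out together (adjusted p = 0.0585). Without YAP siRNA replicate 3, 1 member was called higher. Of 19 genes of ribosome biogenesis, all at or above the median signal, 1 passed (5.26%, against 3.09% of all genes). NOB1, an endonuclease of small subunit maturation, rose by 0.31 (SE 0.0580, adjusted p = 0.00739, but adjusted p = 0.0591 with all probe sets tested). Its nonsense siRNA and YAP siRNA arrays overlapped and lay above the untreated arrays. Nonsense siRNA minus untreated cells was 0.22 (adjusted p = 0.0923), and YAP siRNA minus nonsense siRNA was 0.09 (adjusted p = 0.525). In limma's test 0 of 25 cytosolic ribosomal protein genes passed, with 1 at an unadjusted p under 0.05 and a median of 0.02.

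Of 26 proteasome subunits, 1 passed (3.85%, near the 3.09% of all genes). PSMC4, an ATPase subunit, rose by 0.25 and did not pass without untreated replicate 1 (0.134), untreated replicate 2 (0.0632), YAP siRNA replicate 1 (0.0988) or YAP siRNA replicate 2 (0.151). The median of that list was 0.07, and 23 of its 26 differences lay above 0. Of 22 measured genes of translation initiation and PDCD4, 2 fell and 0 rose (9.09%, against 3.09% of all genes): PDCD4 and EIF4G2, a scaffold of cap-independent translation. PDCD4 is among the 15 largest falls, and this list is named for it. The list was chosen with earlier results of these data known, so the fall of PDCD4 is no separate result of the list. EIF4G2 fell by 0.23 and did not pass without untreated replicate 1 (0.161), untreated replicate 2 (0.117), YAP siRNA replicate 1 (0.0939), YAP siRNA replicate 2 (0.140) or YAP siRNA replicate 3 (0.0693). In the lists of other cell types, 1 of 13 stromal and endothelial markers rose (7.69%, against 3.09% of all genes). PDGFRA, a platelet-derived growth factor receptor, rose by 0.26. It did not pass without untreated replicate 1 (0.118), untreated replicate 2 (0.0785), YAP siRNA replicate 1 (0.0731) or YAP siRNA replicate 2 (0.135). The count of rises among these markers was 2 without nonsense siRNA replicate 2. Of 12 leukocyte markers 0 passed in limma's test, with 0 at an unadjusted p under 0.05.

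Without untreated replicate 3, nonsense siRNA replicate 2 and YAP siRNA replicate 3 together, where 1560 of 18417 genes passed, further list counts moved by more than 1.5 times. They are given with the measured size of each list, and nothing is read from them about a list. The Notch pathway then had 1 member higher and 4 lower of 25, and bile acid and drug metabolism had 5 higher of 23. Interferon-stimulated genes had 3 higher of 26, oncofetal and progenitor genes 2 higher and 1 lower of 15. The p53 target genes had 2 higher and 2 lower of 18. The stress responses had 2 higher and 4 lower of 22 and matrix and integrins 3 higher and 5 lower of 27. Tight junction and polarity genes had 1 higher and 2 lower of 24. Respiratory chain subunits had 4 higher and 1 lower of 24 and the proteasome 3 higher of 26. Autophagy and lysosome had 3 higher and 3 lower of 23. Membrane traffic had 4 higher and 1 lower of 25, and translation initiation 2 higher and 2 lower of 22. The hepatocyte transcription factors had 1 lower of 17, the actin list 1 lower of 20 and the hepatoma markers 1 higher of 13.

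**Figure D5:**
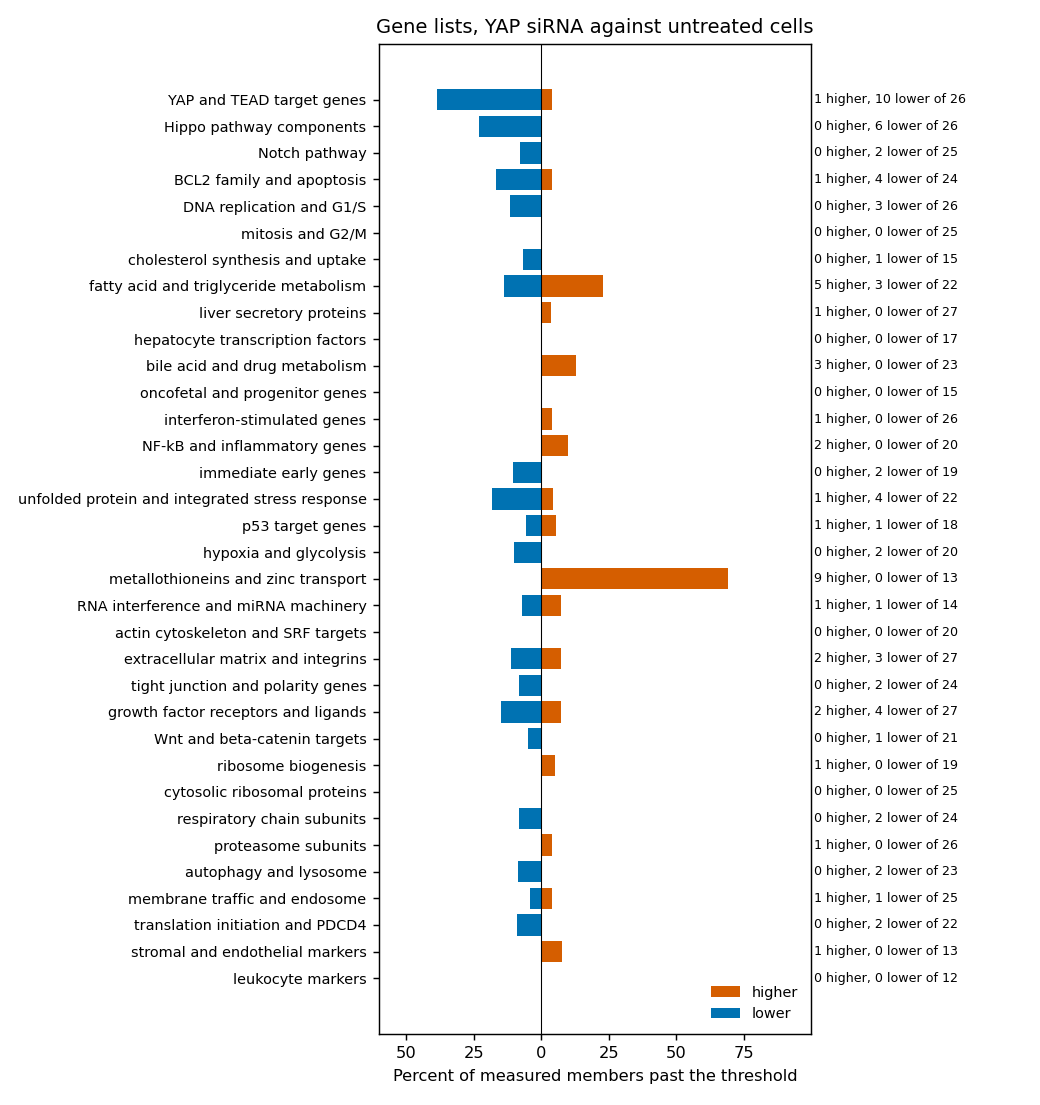
Percent of the measured members of each gene list that passed at an adjusted p under 0.05, drawn to the right for rises (orange) and to the left for falls (blue), with the counts at the right. Against 3.09% of all genes, the longest bars are those of metallothioneins and zinc transport, with 9 of 13 higher, and of YAP and TEAD target genes, with 10 of 26 lower.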

How the data were processed

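Affymetrix gene arrays measured the total RNA of 9 samples of Hep3B cells. The deposited values were read as log2 signals because of their range. How the authors corrected, summarised and normalized them is not given in the sources used here. No further scaling was applied. Per the labels' protocols, a Nucleospin kit served for extraction, and biotinylated cRNA was made from the RNA.

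The array annotation listed 21214 of 33297 probe sets, 19460 with 1 gene, 1754 with several and 12083 unlisted ones left unnamed. A gene with more than 1 such probe set (769 genes) was represented by the one of highest mean signal. By gene ID, 19429 single-gene probe sets matched the RefSeq table, which served for biotypes. All 9 arrays entered 1 limma model (version 3.58.1, under R 4.3.3) that estimated each group's mean through lmFit, contrasts.fit and eBayes, with 9.29 prior degrees of freedom. Tests were two-sided, with Benjamini-Hochberg adjustment over 18417 genes and a threshold of 0.05. Every adjusted p is limma's, as is the SE of a difference. A percent or fold is computed from the log2 difference. The number of arrays limits the precision. The fit was tested on simulated data.

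Named genes were YAP1, the 15 largest rises and 15 largest falls that passed, had at least the median signal and did not overlap the untreated arrays, up to 4 members per list that passed, by size, and genes given whatever their result (WWTR1, TEAD1, TEAD4, CCN1, CCN2, ANKRD1, AMOTL2, AXL, JAG1, NOTCH2, HES1, MCL1, TNFRSF21, UHMK1, ALB, AFP, CDKN1A, FOXM1, CCNB1 and IFIT1). The genes, the 35 lists (717 of 779 distinct genes measured) and the comparison were chosen with earlier results of these data known. Lists were described by counts and medians, with no test of a list.

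Deviations of same-numbered untreated and YAP siRNA arrays from their group means correlated at 0.0405, 0.251 and 0.344, not all over 0.1, and over all pairs of groups at -0.337 to 0.344, so replicate numbers were not treated as pairs. Alternatives changed the scaling, the filter on dim genes, the probe set rule, the variance model, the arrays in the fit and the threshold, or added a replicate block or array weights. A fit without 3 arrays together and the metal response motif were chosen after seeing the data. Promoter sequences came from RefSeq (GRCh38.p14), trimmed to the 250 bases before each start site. Plots used pandas 2.3.3 and matplotlib 3.10.9 on Python 3.11.15.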

Additional observations from a re-analysis of the deposited data

How the results depend on the processing

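The count of 569 called genes (300 higher, 269 lower) was 205 (95 and 110) with all probe sets tested, 1759 (1017 and 742) with array weights, 250 (122 and 128) at an adjusted p under 0.01, 271 (127 and 144) with a difference of at least 0.3 also required, and 1560 (980 and 580) without untreated replicate 3, nonsense siRNA replicate 2 and YAP siRNA replicate 3 together, chosen after seeing the data. Leaving out 1 array gave 279 to 775 genes, 114 to 468 higher and 158 to 328 lower. The cause of these shifts was not tested. Replicate numbers were not shown to pair the samples; the fit with the replicate number as a block called 509 genes (263 higher, 246 lower) and gave YAP1 an adjusted p of 2.80e-07. YAP1 differed by -1.22 to -1.15 when 1 array was left out and passed in every setting run. FOXM1, not called, ranged from -0.051 (without untreated replicate 3) to 0.083 when 1 array was left out, and was -0.044 without the 3 arrays. Of 2250 values of single genes under alternatives, 1969 kept direction and side of the threshold, 270 were no longer past it, 9 came to pass it and 2 turned sign. Of 103 called genes, testing all probe sets ended 53 calls, median centring 14 and the replicate block 6. The smallest difference called was 0.19.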
